A study of Mus musculus with 6 samples.

Results

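The genes of MHC class II antigen presentation were examined in whole kidney of C57BL/6 mice at postnatal day 60. The 10 members were chosen by symbol from the count tables and all 10 were found among 24422 listed genes. They were the surface chains H2-Aa, H2-Ab1 and H2-Eb1, the invariant chain Cd74, the peptide editor subunits H2-DMa, H2-DMb1 and H2-DMb2, the editor's inhibitor subunits H2-Oa and H2-Ob, and the transactivator Ciita. Poly-A RNA was sequenced from 3 control kidneys, labelled wild type, and 3 kidneys labelled Tfr1f/f;KspCre (TfR1KO;KspCre), and both groups were kept on a diet with 220 ppm iron. In the second group exons 3 and 4 of Tfrc, which encodes transferrin receptor 1 (TfR1), were floxed, and Cre was driven by the promoter of Ksp-cadherin (Cdh16), a promoter active in epithelium of the distal nephron. Leukocytes, the cells that carry most MHC class II, are not a target of this promoter. The 3 kidneys so labelled are called knockouts.

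MHC class II molecules are pairs of an alpha and a beta chain that hold peptides from the endosome at the cell surface for CD4+ T cells. The invariant chain blocks the groove until it is cut away in the endosome, and the DM heterodimer then exchanges its remnant for antigen peptide, a step that the DO heterodimer restrains. Ciita binds no DNA itself but is recruited to the promoters of these genes by a complex of RFX, CREB and NF-Y proteins, and interferon gamma is its best known inducer. Dendritic cells, macrophages and B cells express the pathway constitutively or readily, whereas in kidney the tubular epithelium is known to acquire it during inflammation. C57BL/6 mice carry no functional H2-Ea, so that H2-Eb1 lacks its partner chain.

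In short, every member had a higher level in all 3 knockout libraries than in any control library. The surface chains and Cd74 rose 5.48 to 6.91-fold, H2-DMa and H2-DMb1 rose 4.21 and 3.14-fold, and Ciita rose 4.61-fold (edgeR's quasi-likelihood test, with values and errors below). Of the 10 members 9 passed an adjusted p under 0.05, and H2-Ob did not. Over all 15171 genes tested, 10.6% were called higher and 6.64% lower, and 23.8% had all knockout libraries above all control libraries. H2-DMb2 and H2-Oa passed the filter on low counts only through the knockout libraries, so they had to differ. Their calls carry no weight in the count of 9, nor in any later count of members that includes them.

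The calls, more than the fold changes, depended on single libraries. With 1 library left out, 0 of 10 members passed without control 1, control 2 or control 3 (edgeR), where 0.00% of all genes were called higher, and 0 of 10 passed without knockout 3, where 0.0130% were. Without knockout 2, 5 members passed beside 0.435% of all genes, and without knockout 1, 10 passed beside 18.0%. The counts of 0 therefore hold for nearly every gene and not for the members in particular. In those fits 9 or 10 members had an unadjusted p under 0.05, beside 27.4 to 31.0% of all genes. The fold changes kept their sign in every one of these fits, and the log2 fold change ranged over 2.21 to 3.01 for H2-Aa and 2.31 to 2.81 for Cd74. Control 2 had 1451 counts of the Y-linked gene Ddx3y against 1 to 4 in the other 5 libraries. It had 52 Xist counts against 10458 to 23845 in the other 5, and the labels give no sex. Without control 2, 9 of 10 members had an unadjusted p under 0.05, beside 27.4% of all genes in either direction, and the members' fold changes were 2.45 to 12.5. Tfrc itself, with counts of 2783, 2856 and 1032 in the controls and 4368, 1713 and 530 in the knockouts, did not separate the groups (log2 fold change −0.11, SE 0.62, adjusted p = 0.911, edgeR). The counts cover the whole gene and all cells of the kidney, and therefore do not check the labels. Total counts ranged from 11501053 in knockout 3 to 21001341 in control 1, and knockout 3 had 2.59% of its counts on the ribosomal RNA gene Rn45s, against 0.506 to 0.745% in the other libraries.

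Promoter sequence was available for 7 members in the RefSeq table (GRCm38.p6), which gives 250 bases before and 50 after each start. It had no entry for H2-Ab1, Cd74 or Ciita. The stretch that joins the known X and Y boxes of class II genes is printed for 6 members, since this is where the complex that recruits Ciita sits. Capitals mark an X core, written CNNNNAAC, and a Y box, written TGATTGG. Both strings of letters were chosen after these sequences had been seen.
H2-Aa: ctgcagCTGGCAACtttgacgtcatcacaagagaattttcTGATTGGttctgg
H2-Eb1: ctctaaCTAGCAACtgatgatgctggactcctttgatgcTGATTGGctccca
H2-DMb1: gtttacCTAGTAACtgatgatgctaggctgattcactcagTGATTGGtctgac
H2-DMb2: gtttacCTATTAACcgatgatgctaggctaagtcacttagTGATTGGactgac
H2-Oa: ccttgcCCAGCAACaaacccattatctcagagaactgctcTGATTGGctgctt
H2-Ob: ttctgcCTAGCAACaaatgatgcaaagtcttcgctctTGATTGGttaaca

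All 6 stretches lie upstream of the start and carry 23 to 26 bases between the boxes. On GRCm38.p6 they span chr17:34287861-34287913 for H2-Aa (minus strand) and, on the plus strand, chr17:34305767-34305818 for H2-Eb1, chr17:34153088-34153140 for H2-DMb1, chr17:34145117-34145169 for H2-DMb2, chr17:34092294-34092346 for H2-Oa and chr17:34238809-34238858 for H2-Ob. Where several X cores preceded a Y box, the first from the 5′ end is shown. Searched on both strands, the Y box was in 7.82% and the X core in 81.6% of 32851 promoters, and the pair at 20 to 30 bases was in 0.277%. Neither of the 2 promoters listed for H2-DMa held the pair. These matches describe letters only.

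**Figure D1:**
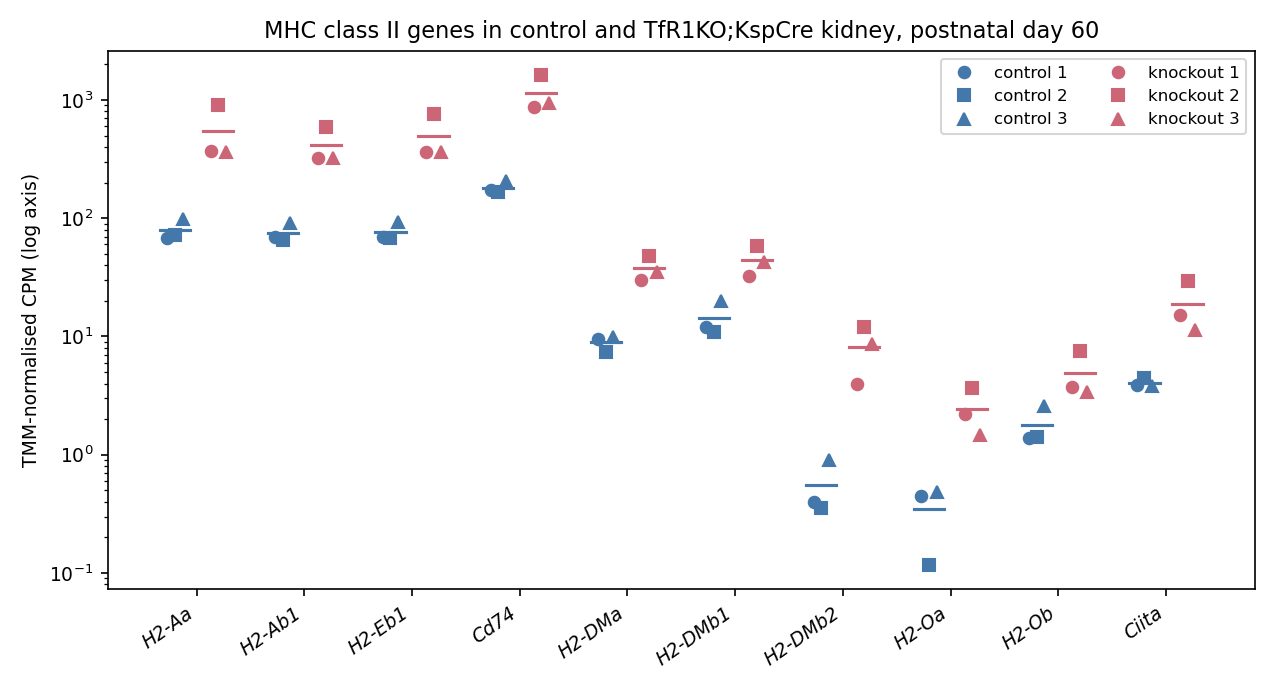
Levels of the 10 MHC class II genes in each library, as TMM-normalised CPM on a log axis, with controls in blue, TfR1KO;KspCre libraries in red and bars at the group means. The groups do not overlap for any of the 10 genes, and knockout 2 (red square) is the highest library for each of them.

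The surface chains came first in the order of roles. H2-Aa, the alpha chain of I-A (chr17:34406276-34424772, mm9, minus strand), had 67.8, 72.3 and 98.4 CPM (counts per 1e6, TMM-normalised) in the 3 controls, given here and below in the order of their replicate numbers, and 369.7, 915 and 364 CPM in the 3 knockouts. Knockout 2 stood far above the other knockouts, which were close to each other. Control libraries averaged 79.5 ± 16.5 and knockout libraries 549 ± 316 CPM (SD, n = 3). The log2 fold change was 2.79 (SE 0.42, adjusted p = 0.0277, edgeR).

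H2-Ab1, the beta chain of I-A (chr17:34400154-34406363, mm9), had 69.2, 65.6 and 91.2 CPM in the controls and 325, 590.3 and 323 CPM in the knockouts. The pattern over libraries was that of its partner with less distance between knockout 2 and the rest. Its log2 fold change was 2.45 (SE 0.30, adjusted p = 0.0271, edgeR). H2-Aa and H2-Ab1 overlap by 88 bases on opposite strands, and since the strand setting of the counting was not stated, reads in that stretch cannot be told apart.

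H2-Eb1, the beta chain of I-E (chr17:34442828-34453144, mm9), had 69.9, 67.8 and 92.9 CPM in the controls and 362, 755 and 365 CPM in the knockouts. It rose by a log2 fold change of 2.68 (SE 0.35, adjusted p = 0.0271, edgeR). H2-Ea-ps, the broken alpha chain gene, had 0 counts in all 6 libraries. H2-Eb2, a neighbouring beta chain gene that was too low to test, had 0, 0 and 2 counts in the controls and 10, 46 and 9 in the knockouts.

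Cd74 (chr18:60963502-60972300, mm9), the chaperone that escorts class II pairs to the endosome, was the most abundant member, with 172, 167 and 206 CPM in the controls and 868, 1620.4 and 934 CPM in the knockouts. The controls varied little and the lowest knockout was far above them. Control libraries averaged 182 ± 21.1 and knockout libraries 1141 ± 417 CPM (SD, n = 3). Its log2 fold change was 2.65 (SE 0.31, adjusted p = 0.0271, edgeR). Its ratio to the summed surface chains, which are its cargo, was 0.728 to 0.830 in the control libraries and 0.717 to 0.888 in the knockout libraries. These ranges overlapped, and the difference of 0.03 on the log2 scale had p = 0.9 (exact permutation test, two-sided).

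Of the peptide editor, H2-DMa (chr17:34272127-34276046, mm9), its alpha chain, had 9.55, 7.34 and 9.96 CPM in the controls and 30, 48.2 and 34.8 CPM in the knockouts. The knockouts lay closer together than for the surface chains, with a 1.61-fold range. H2-DMa rose by a log2 fold change of 2.07 (SE 0.23, adjusted p = 0.0271, edgeR). H2-DMb1 (chr17:34290017-34297168, mm9), the more abundant of the pair of beta chain genes, had 11.9, 11 and 19.8 CPM in the controls and 32.7, 58.3 and 42.9 CPM in the knockouts. Control 3 was its highest control and knockout 1 its lowest knockout. The log2 fold change came to 1.65 (SE 0.31, adjusted p = 0.0301, edgeR).

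H2-DMb2 (chr17:34280252-34288498, mm9), the other beta chain gene, had only 8, 6 and 15 counts in the controls and 81, 241 and 112 in the knockouts. In CPM this was 0.398, 0.352 and 0.900 against 3.97, 12.1 and 8.57. Its log2 fold change was 3.89 (SE 0.58, adjusted p = 0.0276, edgeR), from controls so low that the fold moved between 11.3 without knockout 2 and 21.4 without control 3. Since it passed the filter only through the knockouts, its place among the members is not read. The ratio of H2-DMb2 to H2-DMb1 was 0.0333, 0.0321 and 0.0455 in the controls and 0.121, 0.207 and 0.20 in the knockouts. This is a description of a gene that was nearly absent from the controls. About 86.2% of the 100-base stretches of H2-DMb1 and 87.1% of those of H2-DMb2 were unique, and the rest were shared between the pair, so that reads kept only when unique lower both counts.

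The inhibitor subunits were near the floor of detection. H2-Oa (chr17:34229285-34232179, mm9), its alpha chain, had 9, 2 and 8 counts in the controls and 45, 73 and 19 in the knockouts. All knockouts were above all controls, though knockout 3 came within 10 counts of the highest control before scaling. Its log2 fold change was 2.79 (SE 0.59, adjusted p = 0.0326, edgeR). H2-Ob (chr17:34375848-34390850, mm9), its beta chain, had 28, 24 and 43 counts in the controls and 77, 151 and 44 in the knockouts. It had a log2 fold change of 1.45 (SE 0.45), and with an adjusted p of 0.0648 it did not pass (edgeR). It passed in the DESeq2 Wald test (adjusted p = 0.0174), which called all 10 members beside 17.2% of all genes, and with scaling by library size alone (adjusted p = 0.0404, edgeR), where 19.6% of all genes were called higher. An unnamed gene model, Gm20506, overlaps it by 1208 bases on the same strand, where the assignment of reads is uncertain.

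Ciita (chr16:10480237-10527657, mm9), the regulator of the other members, had 78, 76 and 64 counts in the controls and 309, 590 and 148 in the knockouts. The controls agreed closely, at 3.88, 4.46 and 3.84 CPM, whereas the knockouts spread from 11.3 to 29.6 CPM. Ciita rose by a log2 fold change of 2.20 (SE 0.38, adjusted p = 0.0286, edgeR). Its ratio to the surface chains was 0.0187, 0.0217 and 0.0136 in the controls and 0.0143, 0.0131 and 0.0108 in the knockouts, which overlapped (difference −0.48 on the log2 scale, p = 0.2, exact permutation test, two-sided).

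Per length, as RPKM (CPM divided by length in kilobases) computed from the longest transcript, Cd74 was the highest member in controls at 129 ± 15 and H2-Aa followed at 70.2 ± 14.6 (SD, n = 3). H2-Aa, H2-Eb1 at 65.3 and H2-Ab1 at 62.2 RPKM had overlapping library ranges, as had Ciita, H2-Ob, H2-DMb2 and H2-Oa, each with its neighbour, at 0.768 to 0.320 RPKM. H2-DMb1 at 10.2 and H2-DMa at 5.75 RPKM stood apart from both sets. In the knockouts Cd74 was at 809 and H2-Aa at 485 RPKM, and the ranges of neighbours overlapped except between H2-Ab1 at 341 and H2-DMb1 at 31.9 RPKM and between H2-DMa at 24.2 and H2-DMb2 at 5.54 RPKM.

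The editor was then compared with the chains it acts on. The ratio of summed DM counts to summed surface chain counts was 0.106, 0.0908 and 0.108 in the controls and 0.0631, 0.0525 and 0.0820 in the knockouts. All knockouts were below all controls, and the difference of −0.65 on the log2 scale had p = 0.1, the smallest possible (exact permutation test, two-sided; adjusted p = 0.16 over 8 ratios). The ratio of H2-Aa to H2-Ab1 was 0.981, 1.10 and 1.08 in the controls and 1.14, 1.55 and 1.13 in the knockouts, and that of H2-Eb1 to H2-Ab1 was 1.01, 1.03 and 1.02 against 1.11, 1.28 and 1.13. Neither pair of ranges overlapped, at differences of 0.26 and 0.20 on the log2 scale (p = 0.1 each, exact permutation test, adjusted p = 0.16 over 8 ratios). Without knockout 2 the first difference was 0.11. The ratio of DO to DM overlapped between groups (difference −0.18, p = 0.8, exact permutation test).

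**Figure D2:**
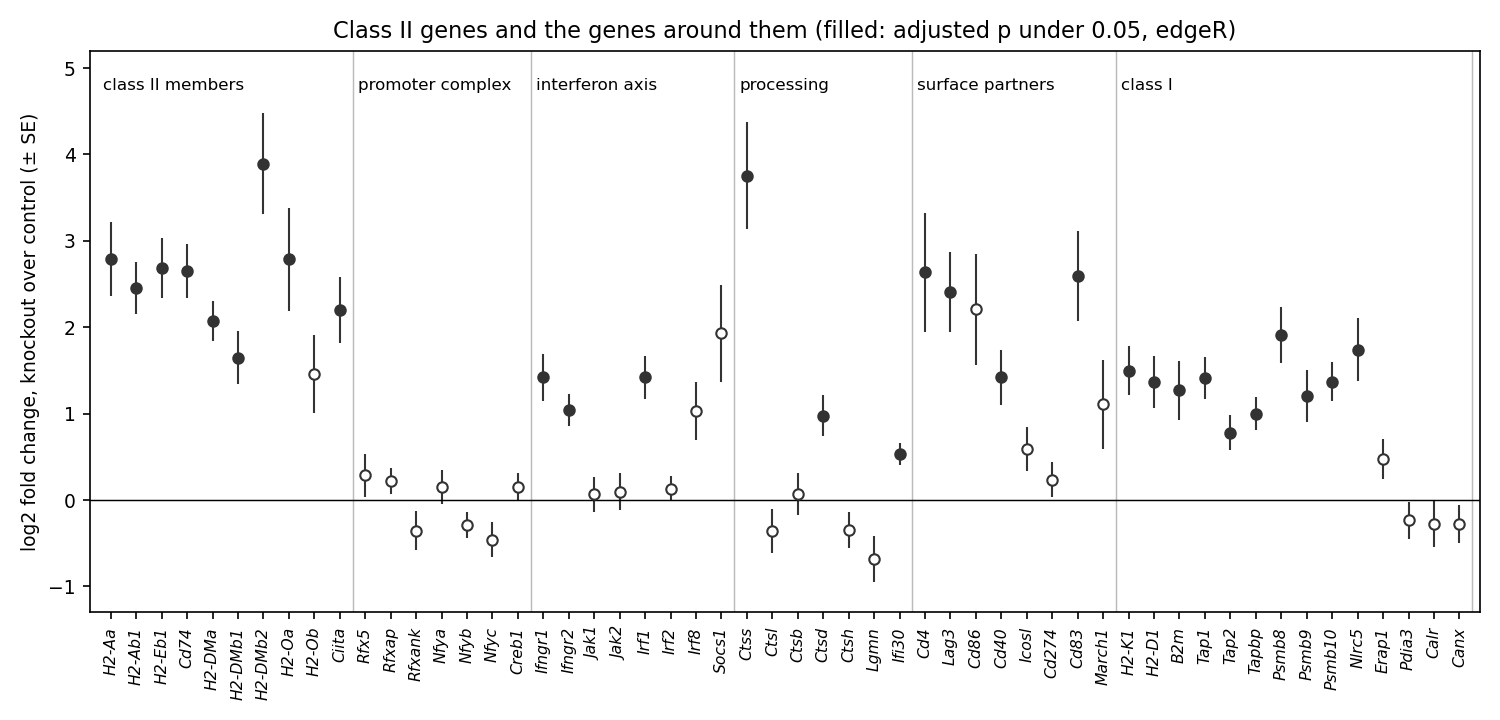
Log2 fold changes (knockout over control, with the SE of the edgeR fit) of the class II genes and of the genes that act with them, in order of role; filled points have an adjusted p under 0.05. The members sit at 1.45 to 3.89, the promoter complex lies within 0.5 of 0, and Ctss at 3.76 stands out among the processing enzymes.

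Around the members, the 7 tested genes of the promoter complex that recruits Ciita (Rfx5, Rfxap, Rfxank, Nfya, Nfyb, Nfyc and Creb1) had a median log2 fold change of 0.15, beside 0.02 over all genes. None was called by edgeR, DESeq2 or limma-voom, and 0 of 7 had an unadjusted p under 0.05, beside 38.6% of all genes. Nfyb (−0.29) and Nfyc (−0.46) were lower in every knockout than in any control, as was the list's summed level, whereas Rfxap (0.22) was higher. DESeq2 called 17.2% of all genes higher and limma-voom 7.33%. Of 8 tested genes listed for the interferon gamma axis 3 were called higher by edgeR, beside 10.6% of all genes. These 3 were the receptor chains Ifngr1 (log2 fold change 1.42) and Ifngr2 (1.04) and the interferon-induced transcription factor Irf1 (1.42). The list's median was 1.04. Socs1, the feedback inhibitor, had 1.93 (SE 0.56, adjusted p = 0.0564, edgeR) and was not called. Ifng itself was too low to test, with 1, 2 and 0 counts in the controls and 2, 6 and 4 in the knockouts.

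Among 7 enzymes of endosomal processing, Ctss, the protease that trims the invariant chain in dendritic cells and macrophages, had 10.3, 9.98 and 15.8 CPM in controls and 63.7, 314 and 110 CPM in knockouts. This was a log2 fold change of 3.76 (SE 0.62, adjusted p = 0.0278, edgeR). Ctsd (0.98) and the thiol reductase Ifi30 (0.53) were also called higher, while Ctsl, the counterpart of Ctss in thymic epithelium, had −0.36 and was not called. Lgmn had −0.68, with all knockouts below all controls, and was not called (adjusted p = 0.1085, edgeR). The list's median was 0.07. Of 8 tested surface partners 4 rose, namely the co-receptor Cd4 (2.63), the class II ligand Lag3 (2.41), Cd40 (1.42) and Cd83 (2.60), with a list median of 1.81. In limma-voom 2 of the 8 passed. Over all genes, edgeR called 10.6% higher and limma-voom 7.33%.

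Of 14 genes of the class I pathway, which presents cytosolic peptides to CD8+ T cells, 10 were called higher by edgeR and 6 by limma-voom. Over all genes the shares were 10.6% and 7.33%. The list's median was 1.24 on the log2 scale. Genes called by edgeR included H2-K1 (1.5), H2-D1 (1.37), the immunoproteasome subunit Psmb8 (1.91) and Nlrc5 (1.74), the class I counterpart of Ciita. H2-K1 had 336, 268 and 343 CPM in controls and 626, 875 and 1174 CPM in knockouts, so that knockout 3 and not knockout 2 was its highest library. The ratio of H2-K1 and H2-D1 to the class II surface chains was 2.02, 1.66 and 1.60 in controls and 0.732, 0.489 and 1.41 in knockouts. It was lower in every knockout, by 1.14 on the log2 scale (p = 0.1, exact permutation test, two-sided, adjusted p = 0.16 over 8 ratios).

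Leukocyte markers moved with the members. Bulk RNA cannot tell more class II cells from more class II RNA per cell. All 5 pan-leukocyte markers (Ptprc, Coro1a, Laptm5, Cd53 and Cd52) were called higher by edgeR and 4 by limma-voom. Over all genes, edgeR called 10.6% higher and limma-voom 7.33%, for this and the next lists. The median log2 fold change of the 5 markers was 2.74, and their summed level was 41.0 to 58.2 CPM in control libraries and 174 to 476 CPM in knockout libraries. Of 10 macrophage markers 8 were called, with sums of 230 to 244 and 464 to 1370 CPM, and Csf1r and Mertk were not; limma-voom called 6. Of 10 dendritic cell markers 8 were called, among them Itgax (3.83), with sums of 18.7 to 19.1 and 53.3 to 122.9 CPM. Of 6 tested T cell markers 5 were called by edgeR and 3 by limma-voom, with sums of 3.63 to 4.86 and 17.7 to 51.5 CPM. None of 5 tested B cell markers was called by edgeR, whereas 4 had an unadjusted p under 0.05 (38.6% of all genes) and 3 were higher in DESeq2 (17.2%) and 0 in limma-voom (7.33%). Their sums were 3.29 to 5.94 and 7.26 to 35.2 CPM. No marker of these lists was at 0 in all knockouts. Knockout 2 was the highest library for each of these sums, as it was for the members. The part of leukocyte content in the result was not tested.

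Markers of the kidney's own cells moved differently. Of 9 tubule markers 3 fell, the proximal tubule genes Lrp2, Cubn and Slc34a1, beside 6.64% of all genes called lower (edgeR). Umod and Slc12a1 of the thick limb had −1.53 (SE 0.99) and −1.46 (SE 0.81) and Slc12a3 of the distal tubule −1.08 (SE 0.88) on the log2 scale, and were not called. The list's median was −1.46, and 1 of 9 was positive. The summed level of the 9 was 16730 to 21080 CPM in controls and 12850, 3940 and 3711 CPM in knockouts 1, 2 and 3. None of 6 endothelial markers was called by edgeR or limma-voom, 2 had an unadjusted p under 0.05 and 1 was higher in DESeq2, near the shares over all genes given above. The part of this lower tubular RNA in the class II levels was not tested.

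**Figure D3:**
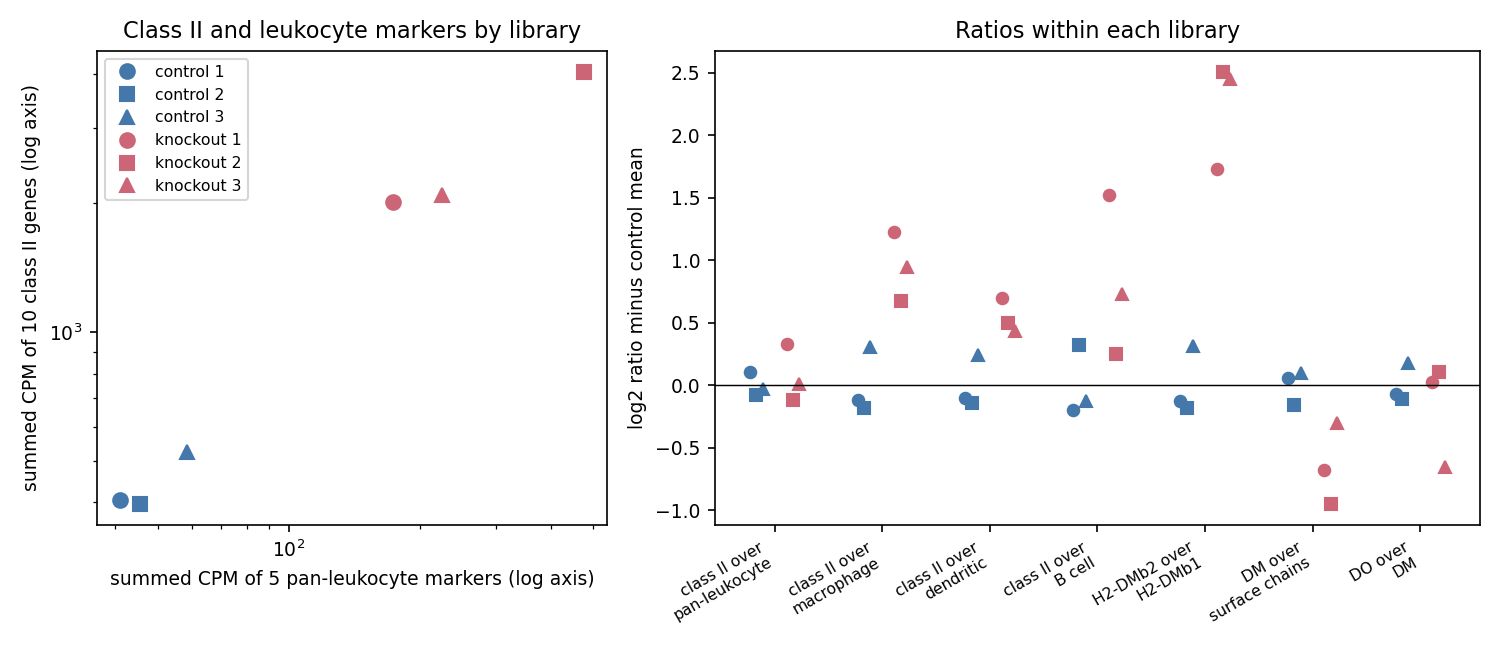
Left, summed CPM of the class II genes against that of 5 pan-leukocyte markers, both on log axes, 1 point per library. Right, log2 ratios within each library minus the control mean. Class II over pan-leukocyte markers overlaps between groups, whereas DM over surface chains does not. H2-DMb2 over H2-DMb1 is shown as a description, since H2-DMb2 had 6 to 15 counts in controls.

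The members were then set against the marker sums within each library. The summed class II level was 406, 398 and 526 CPM in controls and 2012, 4039 and 2089 CPM in knockouts, a difference of 2.55 on the log2 scale (p = 0.1, the smallest possible, exact permutation test, two-sided). Per pan-leukocyte CPM the class II level was 9.90, 8.74 and 9.03 in controls and 11.6, 8.5 and 9.28 in knockouts. These ranges overlapped, with a difference of 0.07 on the log2 scale (p = 0.7, exact permutation test), and the design cannot show that they are alike. Per macrophage marker CPM it ranged over 1.63 to 2.29 in controls against 2.95 to 4.34 in knockouts (difference 0.95, p = 0.1, exact permutation test, adjusted p = 0.2 over 4 ratios), yet this rested on Csf1r, the most abundant marker, without which the difference was 0.37. With medians of log2 CPM in place of sums the difference turned to −0.45, and that to pan-leukocyte markers to −0.53 (p = 0.2 and p = 0.1, exact permutation tests). Per dendritic cell marker CPM it was 21.1 to 27.6 against 31.4 to 37.8 (difference 0.54, p = 0.1, exact permutation test, adjusted p = 0.2). That difference was 0.13 with medians (p = 0.6, exact permutation test) and 1.04 without the most abundant marker. Per B cell marker CPM it was 84.2 to 120.9 against 114.8 to 277, which overlapped (difference 0.83, p = 0.2, exact permutation test, adjusted p = 0.267). No order of class II RNA per leukocyte can be read from these.

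The 5 genes outside the set whose levels followed the members most closely over the 6 libraries, among 11331 candidates, were Pld4 (r = 0.999), Crem (0.997), Rac2 (0.996), Tmed3 (0.995) and Cyth4 (0.994). Likeness was the Pearson r with the members' mean centred log2 CPM. The 6 libraries fall into 2 groups, and 322 candidates had r above 0.95, so the order among them is a description. Pld4 had 6.86, 5.64 and 9.78 CPM in controls and 37.6, 84.1 and 45.5 CPM in knockouts, and Crem moved far less, with a log2 fold change of 0.59.

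**Figure D4:**
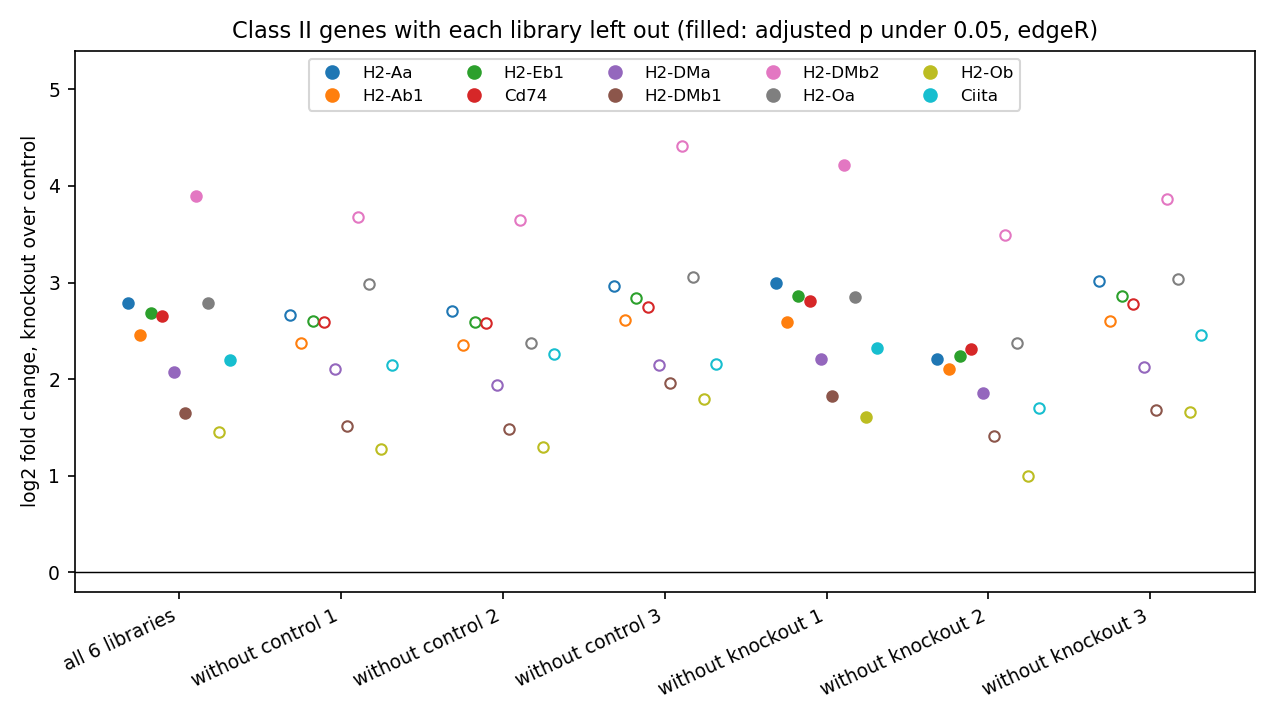
Log2 fold changes of the 10 members with all libraries and with each library left out in turn; filled points have an adjusted p under 0.05 in edgeR. All points stay above 0, while none is filled without control 1, control 2, control 3 or knockout 3.

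Among the fits with 1 library left out, each of the 10 members had its lowest log2 fold change without knockout 2. There, H2-Aa was at a log2 fold change of 2.21 and H2-DMb2 at 3.50, Ciita was at 1.71 (adjusted p = 0.0540, edgeR), and H2-Ob was at 1.00. H2-Aa, H2-Ab1, H2-Eb1, Cd74 and H2-DMa were then the members that passed, each at an adjusted p of 0.0442 (edgeR).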

How the data were processed

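Poly-A RNA of 6 whole kidneys was sequenced with single-end 100-base reads. Per the study's methods and the submitters' processing notes, the authors called bases with CASAVA 1.8.2, trimmed with Trimmomatic, aligned to mm9 with TopHat2 2.0.11, kept unique alignments and counted reads per gene with HTSeq. The deposited values are raw counts, 1 table per group. The annotation and strand setting are not given in the sources used here. The design calls the 3 libraries per group biological replicates.

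Counts were analysed in R 4.3.3 with edgeR 4.0.16 (filterByExpr with a minimum count of 10 and total of 15, TMM, quasi-likelihood test, no covariate, Benjamini-Hochberg adjustment over all 15171 genes tested). The SE was the log2 fold change divided by the square root of F. DESeq2 1.42.0 and limma-voom (limma 3.58.1), other scalings and filters, a replicate block, a covariate of Xist against Y-linked genes and single libraries left out were alternatives. Sums and ratios were tested by exact permutation over the 6 libraries, and the 8 ratios within the pathway were added after the values were seen. Positions and lengths came from GENCODE M1 (mm9). The fit was tested on simulated data. The members, lists and motifs were chosen with earlier results of these data known. Named were all members, genes chosen from the lists, and the 5 genes outside the set with the highest r to the members. One gene of the interferon gamma list is not reported here, for a reason unrelated to its values, and the list's count and median are without it.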

Additional observations from a re-analysis of the deposited data

How the results depend on the processing

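Members called higher (9 with all libraries) numbered 0 with the replicate block and 0 with the Xist-to-Y covariate, where 10 and 9 had an unadjusted p under 0.05 (edgeR) beside 35.8% and 27.9% of all genes, and 0 to 10 with 1 library left out. All genes called (2612) numbered 4882 in DESeq2, 0 with the block, 0 with the covariate and 0 to 5332 with 1 library left out, of which 73 without knockout 2 and 2 without knockout 3. The labels do not say whether equal replicate numbers pair the samples. Same-numbered libraries had deviations correlated at −0.129, 0.0116 and 0.215, and libraries with unlike numbers at −0.254 to 0.221. With 3 libraries per group these values can neither show nor exclude a pairing. Under the other scalings and filters, limma-voom and the newer quasi-likelihood version, 9 or 10 of 10 members were called, or 7 of 8 with at least 10 counts in every library, beside 7.33 to 19.6% of all genes called higher. Library size alone moved the median of all genes to 0.29 on the log2 scale and the share of calls that were higher from 61.4% to 81.8%. No member changed sign in any fit. The log2 difference between groups in class II relative to pan-leukocyte markers turned to −0.53 with medians. It ranged from −0.0524 (without knockout 1) to 0.17 with 1 library left out. Relative to macrophage markers the difference turned to −0.45 with medians. The log2 difference between groups in the ratio of Cd74 to surface chains ranged from −0.0396 without knockout 3 to 0.1145 without knockout 2. It was −0.0275 without control 3. The same difference for the ratio of DO to DM ranged from −0.316 without knockout 2 to 0.0641 without knockout 3. The cause of these changes was not tested. There were 3 libraries per group, and H2-DMb2, H2-Oa and H2-Ob had counts under 50 in every control.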
